A study of Mus musculus with 4 samples.

Results

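The genes described here are 10 genes of antigen presentation by the major histocompatibility complex (MHC) class II in mouse colon: H2-Aa, H2-Ab1 and H2-Eb1, which encode the peptide-binding chains; H2-DMa, H2-DMb1, H2-DMb2, H2-Oa and H2-Ob, which encode the accessory chains of peptide loading; Cd74, the invariant chain; and Ciita, the master co-activator of the family. They were chosen by name, as the probes of the array whose gene name is a listed gene, and made up 10 of the 22368 named genes measured. The array held 14 probe sequences for them among 39429, each spotted once, and every sequence is reported.

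MHC class II molecules are heterodimers of an α and a β chain that show peptides from internalized proteins to CD4+ T cells. The invariant chain Cd74 guides the newly made dimer to endosomes and fills its groove, the DM dimer exchanges the remaining invariant chain fragment for peptide, and the DO dimer, made mainly by B cells, restrains DM. Dendritic cells, macrophages and B cells express these genes constitutively, and interferon γ induces them in other cells, the epithelium of the inflamed gut among them, by way of Ciita.

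The data were 4 one-color arrays, each of colon RNA pooled from 3 to 5 male mice of 42 weeks on the B6.129 (n3) background. The pools were labelled Pla2g3+/+ (WT) or Pla2g3-/- (KO), the KO lacking group III secreted phospholipase A2 by label, and the mice had received azoxymethane (AOM), a colon carcinogen, in 6 weekly doses of 10 mg/kg, or saline vehicle, and the colon was taken 28 weeks after the final dose. Thus the 4 arrays were WT vehicle, KO vehicle, WT AOM and KO AOM, with the tissue of the AOM pools described by the labels as colorectal cancer tissue. Each group was 1 pool on 1 array, so that no comparison has a replicate check, and no p-value is given. A level is the processed signal divided by the 75th percentile of the same array, and the ± given beside a log2 ratio is the scanner software's own error of the 2 spots, which does not include the variation among mice. In these bulk samples, fewer cells of a type and less RNA per cell cannot be told apart.

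Before any direction is drawn, the labels were held against the arrays. The brightest Pla2g3 probe gave signals of 343 on the WT vehicle, 426 on the KO vehicle, 304 on the WT AOM and 1632 on the KO AOM array, that is 1.23-fold and 6.01-fold higher on the arrays labelled KO. The part of the gene that was deleted is not given in the sources used here, so it is not known whether these probes lie inside it, and "KO" below means the pool labelled Pla2g3-/-. Xist, the transcript of the inactive X chromosome of female cells, was not well above background on the vehicle arrays but gave signals of 1498 and 1014 on the WT AOM and KO AOM arrays, although all 4 pools are labelled male. The Y-linked genes Ddx3y, Eif2s3y and Uty were well above background on all 4 arrays. Eif2s3y had signals of 1685, 2108, 1143 and 3120 on the WT vehicle, KO vehicle, WT AOM and KO AOM arrays. A further Y-linked gene, Kdm5d, was dim, with signals of 33.2, 26.2, 31.5 and 17.5 in the same order. Kdm5d was not well above background on the KO AOM array. By Ddx3y, Eif2s3y and Uty, RNA of male cells was present in every pool. A second Xist probe gave 706 and 626 on the WT AOM and KO AOM arrays and was not well above background on the vehicle arrays. Xist thus separated the AOM arrays from the vehicle arrays. The 75th percentiles were 646, 649.8, 1309 and 1169 in the order above, 64.8 to 69.4% of spots were well above background, and no spot was saturated. All 14 epithelial markers listed were well above background on every array. The 9 smooth muscle markers had a summed level of 515, 540, 31.2 and 496, low only on the WT AOM array, and 10 pancreatic acinar genes a summed level of 43.9 on the KO vehicle array against at most 0.835 on the others. What these differences between the pools contribute to the class II values was not tested.

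Class II genes are controlled through a shared promoter layout, and the sequences of the members are shown to let it be seen. In this layout an X box, bound by the RFX complex and by CREB, is followed by a Y box, an inverted CCAAT box bound by NF-Y, and Ciita is recruited to the bound factors without touching DNA. RefSeq windows of 300 bases (250 before and 50 after the annotated start, GRCm38.p6) were at hand for 7 of the 10 members, not for H2-Ab1, Cd74 and Ciita. The Y letters searched were TGATTGG and the X letters CNNNTGATG, on both strands, which were chosen after the windows had been read. TGATTGG was found in 6 of the 7 genes, 45 to 92 bases before the start and on the strand of the gene. On either strand it was found in 7.82% of all 32851 windows of that length. Below are the 62 bases around it, 5′ to 3′ on the strand of the gene, with matches of both patterns on that strand in capitals.
H2-Aa (chr17:34287857-34287918, minus strand): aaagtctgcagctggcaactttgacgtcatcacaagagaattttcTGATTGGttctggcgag
H2-Eb1 (chr17:34305761-34305822, plus strand): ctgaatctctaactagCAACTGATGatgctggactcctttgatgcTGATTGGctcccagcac
H2-DMb1 (chr17:34153083-34153144, plus strand): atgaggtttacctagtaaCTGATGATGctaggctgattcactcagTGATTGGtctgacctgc
H2-DMb2 (chr17:34145112-34145173, plus strand): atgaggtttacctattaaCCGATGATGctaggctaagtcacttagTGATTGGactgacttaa
H2-Oa (chr17:34092289-34092350, plus strand): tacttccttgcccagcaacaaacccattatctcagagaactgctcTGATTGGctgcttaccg
H2-Ob (chr17:34238801-34238862, plus strand): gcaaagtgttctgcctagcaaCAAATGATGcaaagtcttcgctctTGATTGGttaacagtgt

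On either strand, 10.9% of all windows held the X letters. On the strand of the gene they were found in H2-Eb1, H2-DMb1, H2-DMb2 and H2-Ob, 15 to 20 bases ahead of the Y letters. In H2-Eb1, 3 matches of the X letters fell in the window, of which the first is in capitals. X letters followed by Y letters on the same strand with 10 to 30 bases between them occurred in 21 of the 32851 windows (0.0639%), of 20 genes, and 5 of those genes were class II genes of chromosome 17, the fifth being H2-Eb2. H2-Aa had no X letters on the strand of the gene, and 1 match on the opposite strand. It also held TGACGTCA, the cyclic AMP response element, 74 bases before its start, a pattern of 1.79% of all windows. The H2-Oa window held the Y letters alone, and neither window of H2-DMa, which has 2 annotated starts, held either pattern. A match of letters is a description of the sequence and shows neither binding nor use in colon, and the absence of a match says only that these letters are not in the window.

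By their brightest probes, all 10 genes had their lowest level on the KO AOM array. The share of all genes that were lowest there was not counted. Of the other arrays, WT vehicle was highest for 5 genes (H2-Aa, H2-DMa, H2-DMb2, H2-Oa, H2-Ob), WT AOM for 4 (H2-Ab1, H2-Eb1, H2-DMb1, Cd74) and KO vehicle for Ciita. The brightest probe of 9 genes was well above background on all 4 arrays, and that of H2-DMb2 on 3. The scanner error was 10 to 22.1% of the signal for the 47 member values well above background, and under 12% for 37 of them.

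**Figure D1:**
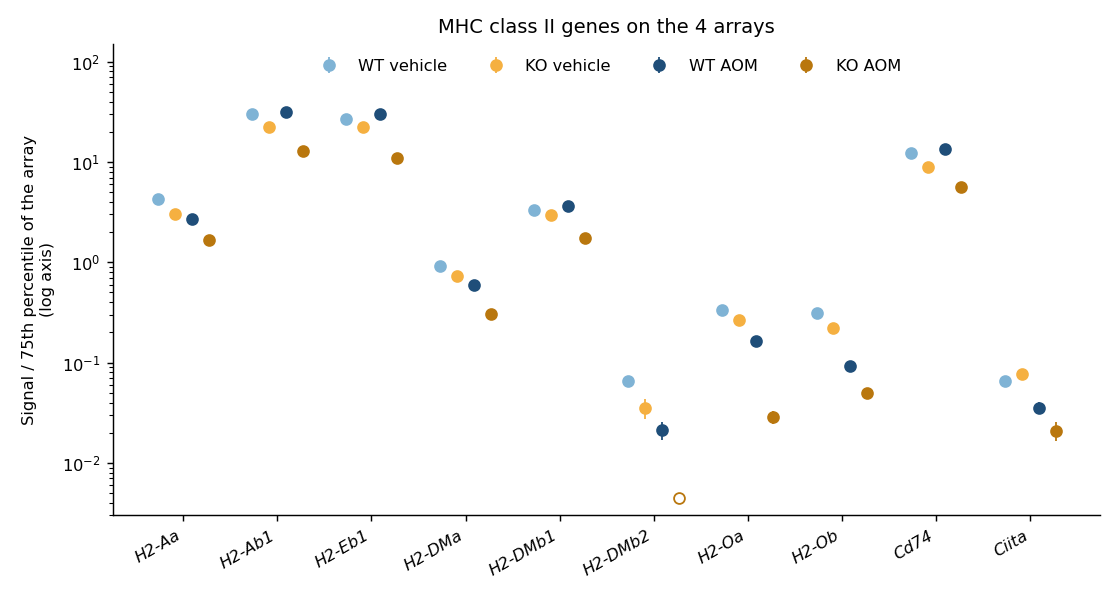
Level of the 10 MHC class II genes (brightest probe) on the 4 arrays, as signal over the 75th percentile of the array on a log axis, with bars for the scanner error of the spot; each point is 1 pool of mice, and the open point, H2-DMb2 on the KO AOM array, was not well above background. The KO AOM point is the lowest for all 10 genes, while the WT AOM point is level with or above the WT vehicle point for H2-Ab1, H2-Eb1, H2-DMb1 and Cd74 and below it for the other 6. Heights are to be compared within a gene, not between genes.

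H2-Aa, the α chain of the I-A molecule (probe at chr17:34421285-34421344, mm9), had levels of 4.23 on the WT vehicle, 3.04 on the KO vehicle, 2.71 on the WT AOM and 1.67 on the KO AOM array. It was 1.62-fold lower on the KO AOM than on the WT AOM array (log2 ratio −0.70 ± 0.20) and 1.39-fold lower on the KO vehicle than on the WT vehicle array (−0.48 ± 0.20), and these log2 ratios differed by −0.22, which is within the spot errors. The KO vehicle and WT AOM levels lay within their errors of each other.

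H2-Ab1, the β chain of I-A, has 2 probes that overlap over 51 bases, so they are not independent measures. The brighter (chr17:34406296-34406355, mm9) had levels of 30.2 on the WT vehicle, 22.5 on the KO vehicle, 31.5 on the WT AOM and 13.0 on the KO AOM array, and the other 31.8, 20.8, 31.6 and 13.0. The 2 WT arrays were indistinguishable within error, and the KO AOM array stood 2.42-fold below the WT AOM array (−1.28 ± 0.20) by the brighter probe and 2.43-fold by the other. H2-Aa and H2-Ab1, whose products pair with each other, thus differed in the WT comparison of AOM with vehicle, at −0.64 ± 0.20 for H2-Aa and 0.06 ± 0.20 for H2-Ab1.

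H2-Eb1, the β chain of the I-E molecule (chr17:34453075-34453134, mm9), followed H2-Ab1. Its levels were 27.0 on the WT vehicle, 22.2 on the KO vehicle, 29.8 on the WT AOM and 10.9 on the KO AOM array. It was 2.74-fold lower on the KO AOM than on the WT AOM array (−1.46 ± 0.20) and 2.04-fold lower than on the KO vehicle array (−1.03 ± 0.20), and the 2 WT arrays were again within error. H2-Ea, the α chain that I-E requires and that mice of the H-2b haplotype do not express, was not well above background on any of the 4 arrays. H2-Eb2, a second β chain gene of the same cluster, had levels of 0.0998, 0.0652 and 0.0369 on the WT vehicle, KO vehicle and WT AOM arrays and was not well above background on the KO AOM array, which puts it at least 2.52-fold below WT AOM there.

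Cd74 (chr18:60972075-60972132, mm9), outside the MHC, followed the I-A and I-E β chains. Its levels were 12.3 on the WT vehicle, 8.85 on the KO vehicle, 13.5 on the WT AOM and 5.66 on the KO AOM array. The 2 WT arrays were within error, and the KO AOM level was 2.38-fold below WT AOM (−1.25 ± 0.20) and 1.56-fold below KO vehicle (−0.65 ± 0.20).

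H2-DMa, the α chain of DM (chr17:34274300-34274863, mm9), had levels of 0.912, 0.738, 0.590 and 0.304 on the WT vehicle, KO vehicle, WT AOM and KO AOM arrays. No neighbors in that order lay within error, and the KO AOM level was 1.94-fold below WT AOM (−0.96 ± 0.21) and 2.43-fold below KO vehicle (−1.28 ± 0.21). H2-DMb1, a β chain of DM (chr17:34297109-34297168, mm9), had levels of 3.32, 2.95, 3.61 and 1.74 in the same order. WT AOM and WT vehicle lay within error of each other, as did WT vehicle and KO vehicle, and the KO AOM level was 2.07-fold below WT AOM (−1.05 ± 0.20). A further H2-DMb1 probe was never well above background; its 60 bases matched, with 2 mismatches, the stretch from 27 bases before to 33 after the RefSeq start, at the very 5′ end of the transcript.

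H2-DMb2, the other β chain of DM (chr17:34284764-34284823, mm9), was near the limit of detection. Its levels were 0.0659 on the WT vehicle, 0.0354 on the KO vehicle and 0.0211 on the WT AOM array, with spot errors of 12.7, 22.1 and 20.2%, and on the KO AOM array it was not well above background. It was 1.86-fold lower on the KO vehicle than on the WT vehicle array (−0.90 ± 0.37), the lowest KO/WT ratio of the 10 genes with vehicle, and 3.13-fold lower on the WT AOM than on the WT vehicle array (−1.65 ± 0.35). For the KO AOM array only bounds can be given, at least 1.44-fold below WT AOM and at least 2.42-fold below KO vehicle.

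H2-Oa, the α chain of DO (chr17:34232033-34232092, mm9), had the largest differences of the 10 genes in the comparisons that use the KO AOM array. Its levels were 0.336 on the WT vehicle, 0.269 on the KO vehicle, 0.166 on the WT AOM and 0.0287 on the KO AOM array. All neighbors in that order were apart by more than the spot error, and the last step was the widest: KO AOM was 5.76-fold below WT AOM (−2.53 ± 0.26) and 9.35-fold below KO vehicle (−3.22 ± 0.26). In WT the AOM array was 2.03-fold below vehicle (−1.02 ± 0.21). Its KO AOM signal was dim, at 33.6. With normexp background correction and quantile normalization, its ratio of KO AOM to WT AOM was −0.82. H2-Eb1, H2-Ab1, Cd74 and H2-DMb1 were lower there, from −1.73 to −1.09. Against KO vehicle H2-Oa stayed the lowest of the 10 genes, at −1.32.

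H2-Ob, the β chain of DO, has 3 probes, which disagree in size and, for the dimmest, in direction. The brightest (chr17:34380481-34380849, mm9) had levels of 0.311, 0.219, 0.0923 and 0.05 on the WT vehicle, KO vehicle, WT AOM and KO AOM arrays, and the second (chr17:34382790-34382849) 0.263, 0.159 and 0.0813, with no value well above background on the KO AOM array. By the brightest probe the KO AOM array was 1.85-fold below WT AOM (−0.89 ± 0.23) and 4.39-fold below KO vehicle (−2.13 ± 0.23), and by the second at least 4.70-fold and at least 9.20-fold below. In WT the AOM array was 3.37-fold below vehicle by the brightest and 3.24-fold by the second. The third probe, designed on a complementary DNA clone and not on the RefSeq transcript (chr17:34377309-34377368), was well above background only on the KO AOM array, at a signal of 51.2, and so at least 3.49-fold above WT AOM.

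Ciita (chr16:10526568-10526627, mm9) had the only KO/WT ratio above 1 with vehicle. Its levels were 0.0655 on the WT vehicle, 0.0765 on the KO vehicle, 0.0356 on the WT AOM and 0.0209 on the KO AOM array, with spot errors of 12.2 to 21.2%. The 2 vehicle arrays were within error (0.22 ± 0.26), the KO AOM level was 1.71-fold below WT AOM (−0.77 ± 0.36) and 3.66-fold below KO vehicle (−1.87 ± 0.36), and WT AOM was 1.84-fold below WT vehicle. The Ciita probe is of low complexity, with 65% A, and 3 probes of other genes (Cbln2, Prg4 and Tenm1) share a stretch of 20 bases with it, so its values are uncertain as a measure of Ciita.

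With vehicle, the pools labelled KO and WT differ by label only in genotype. No member passed 2-fold in either direction, against 1.92% of the 16391 genes with a value that exceeded 2-fold upward and 1.32% that did so downward. Their ratios were below 1 for 9 of 10, against 53.3% of all genes with a value. On the log2 scale they ran from −0.90 for H2-DMb2 to 0.22 for Ciita. Their median log2 ratio was −0.37, against a median of −0.02 and an SD of 0.489 over all genes. For H2-DMb1 and Ciita the ratio was within the error of the spots. The 10 acinar genes were all over 2-fold higher on this KO vehicle array.

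After AOM, the pools labelled KO and WT were compared in the same way, Pla2g3 being higher on the array labelled KO. The ratio was below 1 for 10 of 10 members, against 48.1% of 17194 genes. It was over 2-fold lower for 5 (H2-Ab1, H2-Eb1, H2-DMb1, H2-Oa and Cd74), against 12.9% of the 17194 genes. None was over 2-fold higher, against 15.1%. The median was −1.0 and that of all genes 0.03, with an SD of 1.33 over all genes. The KO/WT log2 ratio after AOM was below that with vehicle for all 9 members measured on the 4 arrays, with differences from −0.22 (H2-Aa) to −2.21 (H2-Oa) and a median difference of −0.85. The share of all genes with such a difference below 0 was not counted. The 2 comparisons share no array. The same WT AOM pool that stands higher here in class II is the one that was low in smooth muscle markers: all 9 of these were over 2-fold higher on the KO AOM array, with a median log2 ratio of 4.54, and the part of this in the class II result was not tested.

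**Figure D2:**
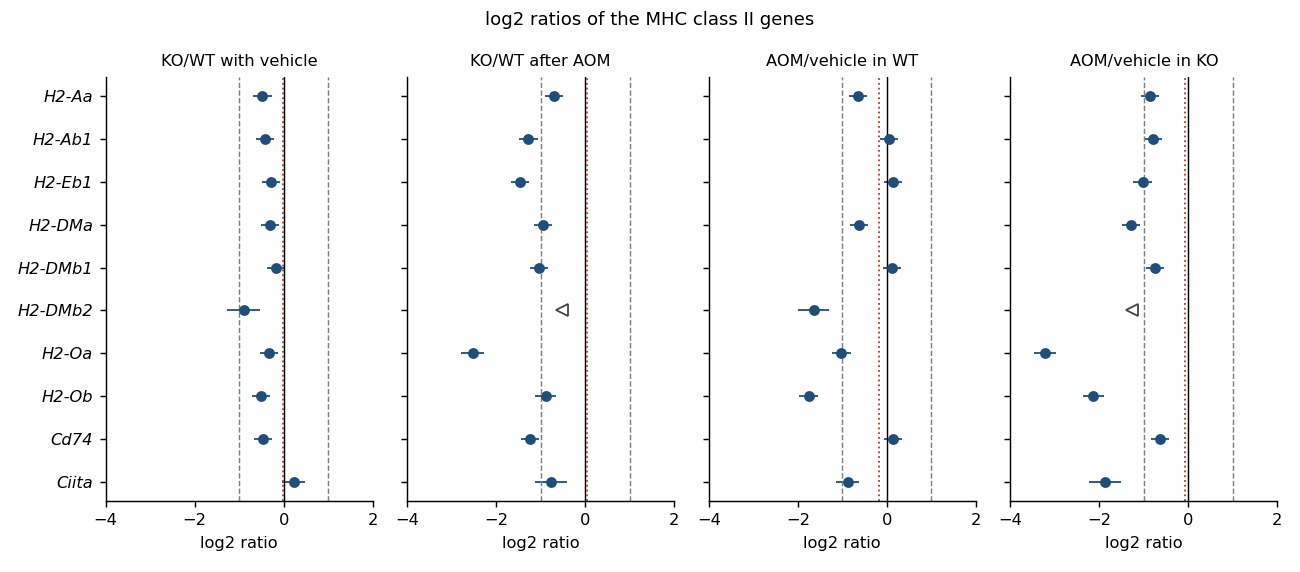
log2 ratios of the 10 genes in the 4 comparisons, with the scanner error of the 2 spots as bars; open triangles are bounds, where the lower array was not well above background and the true value lies at or to the left. Dashed lines mark 2-fold and the dotted red line the median of all genes. KO/WT values lie between −0.90 and 0.22 with vehicle and between −2.53 and −0.53 after AOM.

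**Figure D3:**
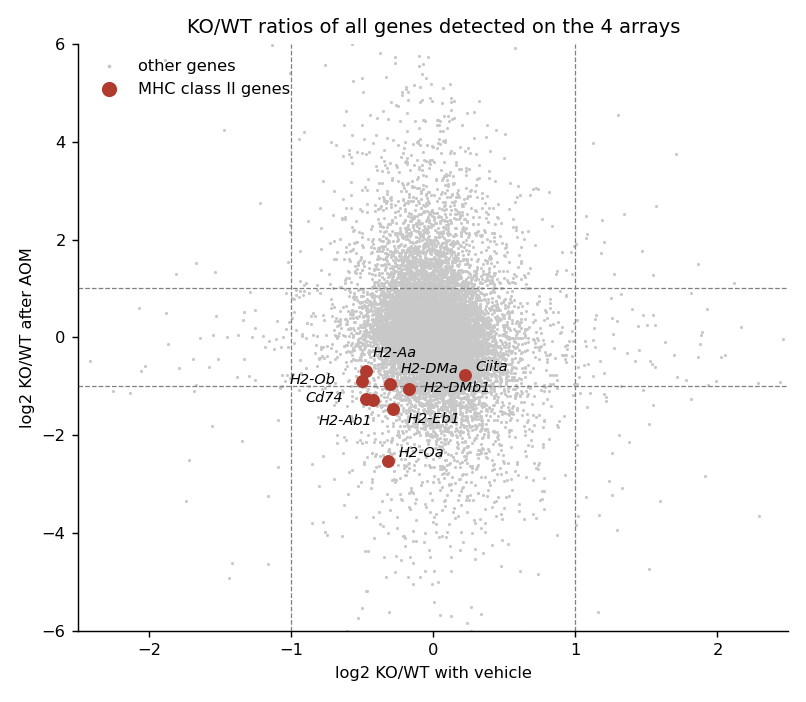
KO/WT log2 ratio after AOM against that with vehicle for genes well above background on the arrays compared; red points are the 9 class II genes with measured ratios in both, gray points are other genes, and 66 of 14788 genes lie outside the frame. The red points lie below 0 on the vertical axis, inside the spread of the gray points.

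AOM was compared with vehicle within each genotype. The arrays compared also differed in Xist, which was well above background on the AOM arrays alone, and the part of this was not tested. In WT, 3 members were over 2-fold lower (H2-DMb2, H2-Oa and H2-Ob) and none higher, against 22.4% and 15.1% of 17275 genes, a share lower that was near that of all genes. The members divided by gene. H2-Ab1, H2-Eb1, H2-DMb1 and Cd74 differed by 1.04-fold to 1.1-fold upward, all within error with scaling by the 75th percentile. By contrast, H2-Aa, H2-DMa, H2-DMb2, H2-Oa, H2-Ob and Ciita were 1.55-fold to 3.37-fold lower. With quantile normalization H2-Ab1, H2-Eb1, H2-DMb1 and Cd74 had log2 ratios of 0.81, 0.84, 0.39 and 0.71, each moved by more than the spot error. Whether these genes were level between the WT arrays thus depends on the scaling. The median of the 10 was −0.64 and that of all genes −0.17. Without scaling by the 75th percentile the median of all genes moved to 0.87 and that of the members to 0.38, with H2-Aa, H2-DMa, H2-Oa and Ciita turning to between 0.00091 and 0.39, so these directions are relative to the rest of the array.

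In KO, 6 members were over 2-fold lower on the AOM than on the vehicle array (H2-Eb1, H2-DMa, H2-DMb2, H2-Oa, H2-Ob and Ciita) and none higher, against 15.1% and 9.65% of 16514 genes. All 10 ratios were below 1, against 53.5% over all genes. The nearest to 1 was Cd74 at −0.65 and the farthest H2-Oa at −3.22. The median was −1.15, and that of all genes −0.08 with an SD of 1.03. Without scaling the medians were −0.30 for the members and 0.76 for all genes, and H2-Ab1, H2-DMb1 and Cd74 turned to between 0.06 and 0.20. The comparison shares the KO AOM array with the KO/WT comparison after AOM, so the counts of the 2 are not separate observations.

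By chromosome, 8 of the members lie on chromosome 17, from position 34232033 to 34453075 in mm9. Among the genes of the array between those ends were 5 others, Brd2, Psmb9, Tap1, Psmb8 and Tap2. Psmb8 and Psmb9, subunits of the immunoproteasome, and Tap1 and Tap2, the peptide transporter of class I presentation, had KO/WT log2 ratios of −1.16, −0.93, −1.08 and −0.62 after AOM and of −0.06, −0.10, −0.09 and −0.04 with vehicle. Brd2, a chromatin reader of the same interval, had 0.23 after AOM and 0.07 with vehicle. Cd74 on chromosome 18, with −1.25 after AOM, was within the range of the chromosome 17 members.

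The factors of the class II promoter had ratios on both sides of 1. They were 7 genes (Rfx5, Rfxap and Rfxank of the RFX complex, Nfya, Nfyb and Nfyc of NF-Y, and Creb1), with a median of −0.02 in KO/WT after AOM, and 2-fold was passed by 1 gene in each direction. Rfxank was 2.66-fold higher, with levels of 2.0, 2.12, 0.365 and 0.971 on the WT vehicle, KO vehicle, WT AOM and KO AOM arrays. Rfx5 was 2.07-fold lower, at 0.0354 on the WT AOM and 0.0171 on the KO AOM array, and not well above background on the WT vehicle array. The other 5 lay between −0.20 (Creb1) and 0.30 (Rfxap).

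Interferon γ is the chief inducer of Ciita. Ifng itself had levels of 0.0580, 0.0331 and 0.0662 on the WT vehicle, KO vehicle and WT AOM arrays and was not well above background on the KO AOM array, at least 4.53-fold below WT AOM. Its receptor chains differed in pattern, Ifngr1 being 2.26-fold higher on the KO AOM than on the WT AOM array and Ifngr2 within 1.01-fold. Of the signaling genes after AOM, Socs1, the feedback inhibitor of the pathway, was 2.45-fold lower, while the kinases Jak1 and Jak2 and the factor Irf1 had log2 ratios of 0.19, 0.63 and 0.56. Of 19 interferon γ targets outside class II, 13 were over 2-fold lower and none higher in KO/WT after AOM, with a median of −1.16, from −7.42 for the chemokine Cxcl9 to 0.39 for the immunoproteasome subunit Psmb10. In the WT comparison of AOM with vehicle 9 of these 19 were over 2-fold higher and 3 lower, with a median of 0.85. Over all genes the shares were 15.1% higher and 22.4% lower. Cxcl9 had levels of 0.290 on the WT vehicle, 0.342 on the KO vehicle, 3.68 on the WT AOM and 0.0215 on the KO AOM array.

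MHC class I presentation is the pathway for peptides of cytosolic proteins. Of 14 of its genes with a value, 3 were over 2-fold lower and none higher in KO/WT after AOM, with a median of −0.45. Nlrc5, the class I counterpart of Ciita, was the lowest at −2.93, with levels of 0.281, 0.397, 1.86 and 0.244 on the WT vehicle, KO vehicle, WT AOM and KO AOM arrays, and Erap1, which trims class I peptides, the highest at 0.22.

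The genes that act on class II proteins or beside them gave mixed values in KO/WT after AOM. Of 10 endosomal proteases and processing genes, 1 was over 2-fold lower, the protease Lgmn at −1.10, and the highest was 0.98 for Ctss, the protease that degrades Cd74. Of the class II ubiquitin ligases and their regulator, Marchf1, which marks class II molecules for removal from the surface, was 2.28-fold higher and Cd83, which opposes it, 1.97-fold lower. Of the class II receptors, Cd4 had −0.12, and Lag3 was well above background only on the WT AOM array and at least 2.92-fold lower on KO AOM. Of 9 costimulation genes 5 were over 2-fold lower and none higher, with a median of −1.23, from Pdcd1lg2, at least 9.17-fold lower, to Icosl at 0.87.

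**Figure D4:**
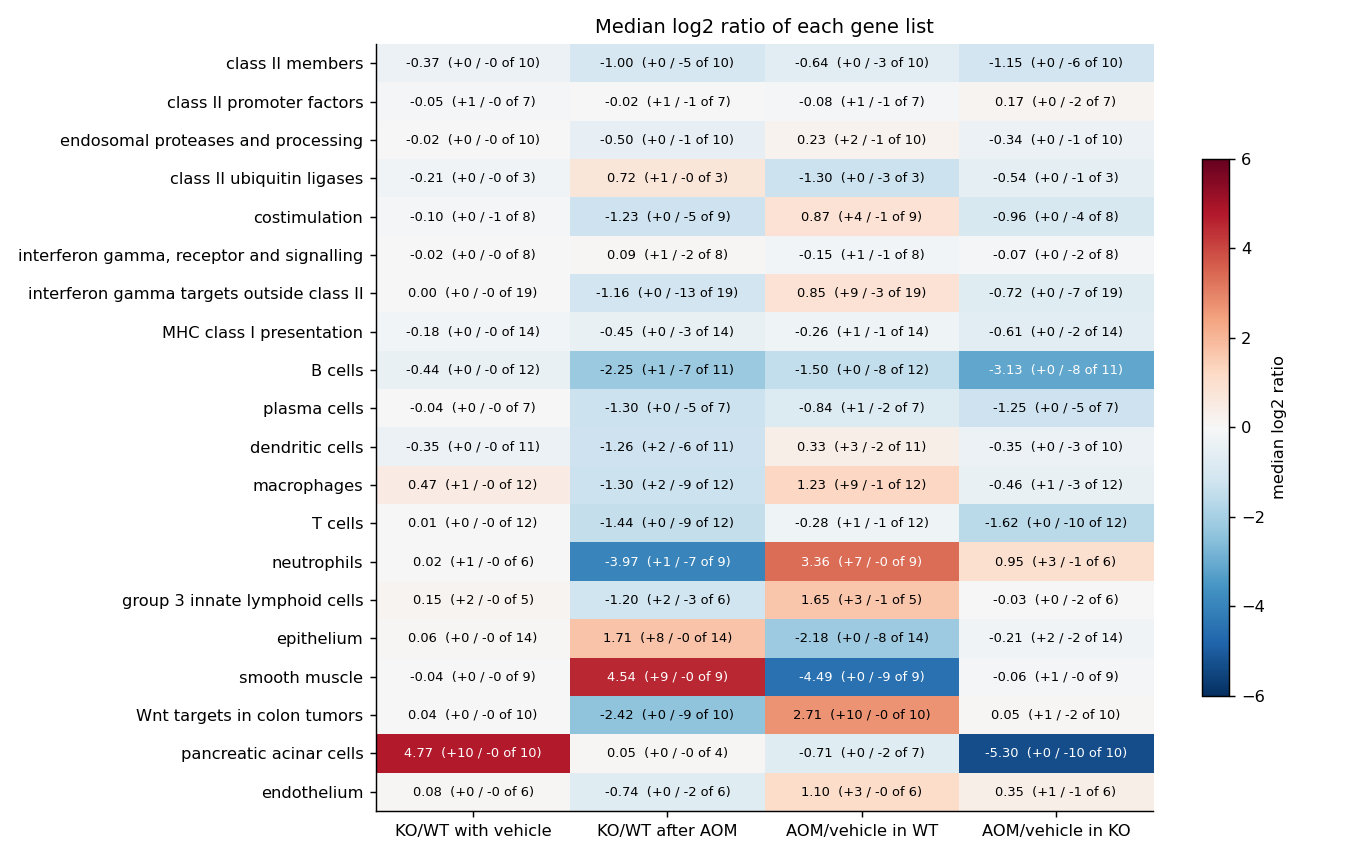
Median log2 ratio of the class II genes (top) and of each other gene list in the 4 comparisons, as color and number; in parentheses are the genes over 2-fold higher (+) and lower (-) of those with a value. In KO/WT after AOM the class II median is −1.0, beside −2.25 for B cells, −1.26 for dendritic cells, −1.30 for macrophages and 4.54 for smooth muscle.

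Genes of the cells that carry class II differed between the arrays as well, in part in the other direction, and their part in the class II values was not tested. Of 12 B cell genes, 7 of 11 with a value were over 2-fold lower in KO/WT after AOM and 1 higher, with a median of −2.25, and all 12 were below 1 in KO/WT with vehicle, with a median of −0.44. Their summed level was 4.61 on the WT vehicle, 3.54 on the KO vehicle, 1.60 on the WT AOM and 0.592 on the KO AOM array, which is also the order of the arrays for H2-Aa, H2-DMa, H2-DMb2, H2-Oa and H2-Ob. Plasma cell genes had sums in that order too, at 103, 98.9, 60.6 and 23.4. So did the MHC class I genes, at 390, 334, 278 and 209. The T cell genes without Thy1 did as well, at 5.65, 5.41, 5.03 and 1.46. For H2-Aa, KO vehicle and WT AOM lay within spot error. The share of all genes in this order was not counted. Of the B cell genes, Ms4a1, Blk, Fcrla and Fcmr were among those not well above background on the KO AOM array. Pax5 and Blk were well above background on neither the KO vehicle nor the WT AOM array. Ms4a1, the gene of the B cell antigen CD20, had the lowest value, at least 8.68-fold lower, while Pax5, a dim probe, had the highest, at least 2.85-fold higher.

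Macrophage genes did not share that order. Of 12 with a value (Cd163 was not well above background on any array), 9 were over 2-fold lower and 2 higher in KO/WT after AOM, with a median of −1.30, from Cx3cr1 at −2.52 to the phagocytic receptor Mertk at 1.65. In WT, 9 of 12 were over 2-fold higher with AOM, and the summed level was 34.5, 34.3, 39.3 and 27.0 on the WT vehicle, KO vehicle, WT AOM and KO AOM arrays. Itgam, the gene with the largest part of that sum, had levels of 18.7, 15.4, 5.95 and 12.6, and without it the sum was 15.8, 18.9, 33.3 and 14.4. Of 11 dendritic cell genes with a value, 6 were over 2-fold lower and 2 higher, with a median of −1.26, from Ccr7, the homing receptor of mature dendritic cells, at −3.82 to Cd207, a dim probe, at least 2.66-fold higher. Their summed level of 65.2, 70.1, 52.6 and 60.4 on the WT vehicle, KO vehicle, WT AOM and KO AOM arrays was nearly all Siglech, and without it the sum was 1.15, 1.05, 3.23 and 1.0, highest on WT AOM; Xcr1 was not well above background on any array, and Flt3 and Clec9a not on KO AOM.

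T cells, which read class II, and the epithelium, which can be induced to make it, were listed as well. Of 12 T cell genes, 9 were over 2-fold lower and none higher in KO/WT after AOM, with a median of −1.44, from Zap70 at −3.40 to Cd247 at 0.23, and with a summed level of 8.24, 8.33, 9.53 and 5.18 on the WT vehicle, KO vehicle, WT AOM and KO AOM arrays, or 5.65, 5.41, 5.03 and 1.46 without Thy1, the gene with the largest part of it; Cd8a and Cd8b1 were not well above background on KO AOM. Of 14 epithelial genes, 8 were over 2-fold higher on the KO AOM array and none lower, with a median of 1.71, from the keratin Krt18 at −0.39 to the chloride transporter Slc26a3 at 7.59. Of 10 Wnt target genes of colon tumors, 9 were over 2-fold lower, with a median of −2.42, from Sp5, at least 268-fold lower, to Sox9 at −0.47, and in WT all 10 were over 2-fold higher with AOM. The medians of the remaining lists in KO/WT after AOM were −1.30 for 7 plasma cell genes (Jchain −2.95 to Xbp1 −0.16), −3.97 for 9 neutrophil genes (S100a9 −6.53 to Ly6g 1.52), −1.20 for 6 genes of group 3 innate lymphoid cells (the lowest Il7r at −2.90) and −0.74 for 6 endothelial genes (Cdh5 −1.69 to Tek 0.25).

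The genes whose pattern over the 4 arrays was nearest to the mean of the class II genes were sought among 14779 genes well above background on all 4 arrays, by the Euclidean distance between log2 levels centered on each gene's own mean. The mean pattern of the 9 members with values on every array was 0.63 on WT vehicle, 0.32 on KO vehicle, 0.13 on WT AOM and −1.08 on KO AOM. The nearest genes included Pyy (distance 0.104), Cda (0.111), Tnip3 (0.145), Flywch2 (0.148), Xaf1 (0.154), Nop10 (0.170), Lipt2 (0.193), Irf4 (0.209) and Olfr629 (0.213). The members themselves lay at 0.177 (H2-DMa) to 1.5 (H2-Oa) from their mean. With 4 arrays, likeness of pattern is easily met, and the order of these genes is a description.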

How the data were processed

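RNA of 4 pools of mouse colon was labelled with Cy3 (27.7 ng of total RNA) and hybridized to Agilent one-color arrays on 1 slide. The deposited scanner files hold, per spot, the intensity as processed by the authors' Feature Extraction (version 11.5.1.1, from the submitters' processing notes), background-subtracted and set to a surrogate where low, and its detection call. The deposited p-values of each spot against background were not used beyond that call. The authors' value table holds the same intensity as a ratio to a fixed value per array, equal at all 44397 spots within 1e-06. Here the intensity was divided by the 75th percentile of each array's non-control spots, outlier spots were left out, spots of a probe were averaged on the log2 scale, and each gene was represented by its brightest probe. Genes well above background on neither array were left out, and where only 1 array passed, the ratio is a bound against the higher of the dim signal and the lowest signal well above background (10.7 to 17.1). Of 39429 probes, 31372 were named by RefSeq (GRCm38.p6); positions of probes are those of the files (mm9). With 1 array per group there is no test, and called means over 2-fold. The steps were checked on simulated data. The members and gene lists were chosen with earlier results of these data known. Genes named outside the members were, for each list, the highest and lowest in KO/WT after AOM, all genes of 3 short lists (promoter factors, further class II chains, interferon γ signaling), the nearest patterns, and Pla2g3, except a few genes that are not reported here; the genes between the members on chromosome 17, the undetected markers, the genes left out of summed levels and the sex check were added after their values were seen. Fold thresholds, scalings, background correction, probe choice and the filter were varied. Python 3.11.15 with pandas 2.3.3, numpy 2.4.6, scipy 1.17.1 and matplotlib 3.10.9, and R 4.3.3 with limma 3.58.1 were used. The number of arrays limits the precision.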

Additional observations from a re-analysis of the deposited data

Results flagged for a closer look

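Ciita was the only gene of the 10 whose pools labelled KO and WT stood in opposite order in the vehicle and AOM comparisons. The log2 ratio of KO to WT was 0.22 on the vehicle arrays and −0.77 on the AOM arrays, with 1 pool a group. The difference between these ratios was not tested, and the vehicle ratio was within the error of its spots. With normexp background correction and quantile normalization the ratios were 0.08 with vehicle and −0.12 after AOM. The probe is of low complexity, so its values are uncertain as a measure of Ciita.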

How the results depend on the processing

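No paired analysis was possible because each group is 1 array and the result comes from no test. For the same reason no replicate could be left out. Of 124 summary values under the alternatives 105 were labelled the same. That label means a count within 1.5-fold of the main count, or a median moved by less than the spot error. The authors' value table, 1 of the alternatives, holds the same intensity over a fixed value per array, so its agreement was fixed in advance. Each comparison had 89 single gene ratios, 1 for each gene and alternative setting with a value. Of these, 89 kept their sign for KO/WT with vehicle, 88 for KO/WT after AOM, 84 for AOM over vehicle in WT and 85 in KO. For a gene with 1 probe, the settings of probe choice returned the main ratio. The settings of the filter did so for each gene well above background on both arrays. Many of the ratios thus could not change sign, and the counts are not counts of separate checks. At a threshold of 1.5-fold, 1 member was lower in KO/WT with vehicle, 9 after AOM, 6 for AOM over vehicle in WT and 10 in KO. At 4-fold the last 3 counts were 1, 0 and 2. Shares over all genes were counted only at 2-fold with the main settings, so the counts in this section have no such share beside them. With normexp and quantile normalization, which draws dim signals together, the median was −0.78 in KO/WT after AOM; for AOM over vehicle it was −0.19 in WT, with 0 members over 2-fold lower, and −0.59 in KO, with 2. Without scaling, AOM over vehicle in WT had 4 members over 2-fold higher and 0 lower. The median of the members was then 0.38, against 0.87 over all genes. There, 4 members (H2-Aa, H2-DMa, H2-Oa and Ciita) turned to between 0.00091 (H2-Oa) and 0.39 (H2-DMa). In KO, 3 members were lower, and the median of the members was −0.30, against 0.76 over all genes. H2-Ab1, H2-DMb1 and Cd74 turned there to between 0.06 and 0.20. With the dimmest probe of each gene, H2-Ob turned to 0.95 for AOM over vehicle in KO, where the median became −0.95, and was the 1 member over 2-fold higher in KO/WT after AOM. The lowest signal well above background bounds H2-DMb2 on the KO AOM array.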
